A study of Homo sapiens with 3 samples.

Results

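The genes of the cytosolic ribosomal proteins were taken from the feature table by symbol (RPL or RPS followed by a digit, RPLP0 to RPLP2 and RPSA), leaving out RPS6K kinases, RPS4Y genes, names with a dash and pseudogenes. The rule found 86 genes among 33538 features: 50 of the large subunit, 3 of its stalk, 32 of the small subunit, and RPS19BP1, which binds RPS19 and is no ribosomal protein. All 86 are protein coding and they lie on 21 chromosomes. The samples are 3 single-cell libraries of HUES8, a human embryonic stem cell line, differentiated into SC-α cells, the stem cell-derived counterpart of the glucagon-secreting α cell of the pancreatic islet. They form 1 group (replicates 1 to 3), with no treatment, no other genotype and no control arm. The labels do not say whether the libraries came from separate differentiations, so p-values below measure only the spread between these libraries, which may be technical.

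The cytosolic ribosome is built from a large and a small subunit, each a folded ribosomal RNA carrying many proteins that are needed in about equal numbers. Most vertebrate ribosomal protein mRNAs begin with a run of pyrimidines at the cap, the 5′ terminal oligopyrimidine tract, through which mTOR signalling sets their translation. A few of the proteins have a paralog encoded by a second gene, often used in particular tissues such as muscle or testis.

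Start-site windows are shown because this tract is the sequence feature that most of these genes share and the selection did not use. RefSeq promoter windows (GRCh38.p14) were found for 68 of the 86 genes. A C at the start site followed by at least 4 further C or T was present in at least 1 window of 47 of the 68 (69.1%), against 5.14% of 27305 genes with a window. The windows below run from 10 bases before the start site to the 20th base of the transcript, 5′ to 3′ on the gene's strand, with the tract in capitals where it met this definition. RPS19 lies at chr19:41860245-41860274, RPLP1 at chr15:69452808-69452837, RPL10 at chrX:154398367-154398396, RPL26 at chr17:8383174-8383203, RPL39 at chrX:119791611-119791640 and RPL22L1 at chr3:170870176-170870205. RPS19 and RPL10 have further windows without the tract, which are not shown. RPL26, RPL39, RPL22L1, RPL3 and RPS27L lie on the minus strand and the others on the plus strand. The windows without the tract are RPL3 at chr22:39319604-39319633, RPS27L at chr15:63157458-63157487, RPL26L1 at chr5:172958719-172958748 (the first of its 2 windows, neither with the tract) and RPL7L1 at chr6:42879606-42879635.
RPS19: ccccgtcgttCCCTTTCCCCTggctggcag
RPLP1: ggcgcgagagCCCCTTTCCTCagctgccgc
RPL10: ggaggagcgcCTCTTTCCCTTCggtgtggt
RPL26: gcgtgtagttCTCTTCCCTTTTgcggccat
RPL39: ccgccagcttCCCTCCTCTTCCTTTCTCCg
RPL22L1: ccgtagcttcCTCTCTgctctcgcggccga
RPL3: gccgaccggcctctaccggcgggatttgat
RPS27L: gatgccgagcgcagatcgcttgcagcttgc
RPL26L1: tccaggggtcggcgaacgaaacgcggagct
RPL7L1: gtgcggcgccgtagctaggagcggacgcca
Of the paralogs shown, RPL22L1 had the tract, and RPS27L, RPL26L1 and RPL7L1 did not. Counted from the annotated start, the pyrimidine run of RPL3 was 4 bases long, 1 short of the definition, and the base before that start is also a pyrimidine. Pyrimidine runs of RPL19 and RPL36AL also crossed an annotated start without meeting the definition. The count of 47 therefore depends on the annotated base, and genes outside it need not lack a tract. In the 250 bases before the start, the core of the ETS motif (CGGAAG, either strand) occurred in 41 of the 68 genes (60.3%, against 19.4% of all genes). The TATA box (TATAAA, either strand) occurred in 7 (10.3%, against 13.0%). A GC box (GGGCGG, either strand, which can share bases with the ETS core) occurred in 40 (58.8%, against 46.2%).

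A barcode entered the analysis if it had 1000 or more genes detected and no more than 20% of its UMIs from mitochondrial genes, which left 1160, 1027 and 1466 barcodes in replicates 1, 2 and 3, of 2850, 2576 and 4257. Their median depth was 15267, 20721 and 9991.5 UMIs. Cells with at least 3 of 8 proliferation genes detected were called cycling, cells with at least 3 TPH1 UMIs (the rate-limiting enzyme of serotonin synthesis, an enterochromaffin cell gene) TPH1-positive, and cells with at least 5 UMIs and 0.1% of UMIs from COL1A1, COL1A2 and COL3A1 collagen-positive. The remaining cells were GCG-rich where glucagon took at least 5% of UMIs, and GCG-poor otherwise. GCG-rich cells numbered 849, 852 and 910, GCG-poor cells 247, 132 and 328, TPH1-positive cells 36, 19 and 107, cycling cells 19, 13 and 31, and collagen-positive cells 6, 7 and 70. Cells with more than 1 of these marks (3, 4 and 20) were left out of the comparisons, and the libraries shared only 1, 4 and 2 barcodes pairwise. The 6 α-cell markers summed to between 206170 and 235861 CPM (UMIs of a gene scaled to a total of 1000000) in GCG-rich cells. GCG, which defines that class, alone gave 130093 to 161358 CPM of these sums. In collagen-positive cells the 6 α-cell markers summed to between 1360 and 2382 CPM. The 7 mesenchyme markers, 3 of which define the collagen-positive class, summed to 14479 to 22480 CPM there. VIM alone gave 6219 to 12708 CPM of these sums.

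Apart from GCG and mitochondrial UMIs, and in counts summed over each class, ribosomal protein mRNA took a similar share in GCG-rich and GCG-poor cells. The share was smaller in TPH1-positive cells and about double the GCG-rich share in collagen-positive cells. As a percentage of UMIs that were neither mitochondrial nor GCG, the 85 genes together gave 13.1%, 13.0% and 14.1% in GCG-rich cells of replicates 1, 2 and 3, and 12.6%, 13.7% and 14.1% in GCG-poor cells. TPH1-positive cells gave 10.4%, 11.3% and 12.1%, each below the GCG-rich cells of its own library. Cycling cells gave 18.2%, 13.97% and 16.6%, and collagen-positive cells 26.5%, 25.3% and 26.5%, well above the range of every other single class. Relative to GCG-rich cells of the same library, the share was 0.842 ± 0.041 times in TPH1-positive cells, 1.21 ± 0.16 times in cycling cells and 1.95 ± 0.07 times in collagen-positive cells (SD, n = 3 libraries). With all UMIs as the denominator, the ratios were 0.988, 1.51 and 2.49, so the smaller share of TPH1-positive cells held only against UMIs other than GCG and mitochondrial ones. As a percentage of all UMIs, GCG-poor cells were above GCG-rich cells in each library, at 10.6%, 11.6% and 11.8% against 9.12%, 8.95% and 10.1%. Median mitochondrial content was 14.8% to 15.1% in GCG-rich, 14.97% to 15.9% in TPH1-positive, 7.31% to 9.36% in cycling and 9.17% to 10.7% in collagen-positive cells, and the nuclear RNA MALAT1 stood at 11296 to 19795 CPM in GCG-rich cells, 27084 to 47640 CPM in TPH1-positive cells and 30100 to 42522 CPM in collagen-positive cells; their part in these ratios was not tested. The small subunit supplied between 40.8% and 42.5% of ribosomal protein UMIs in each of the 5 classes and each library.

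**Figure D1:**
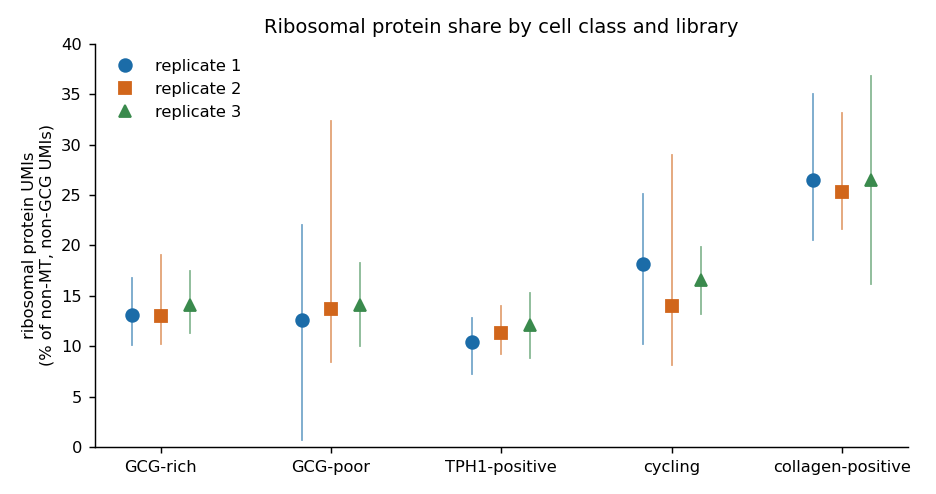
Ribosomal protein UMIs as a percentage of UMIs that are neither mitochondrial nor GCG, by cell class (x axis) and library (colour and symbol); each symbol is the value of the summed class and each line runs from the 10th to the 90th percentile of its cells. Collagen-positive cells sit at 25.3% to 26.5% and GCG-rich cells at 13.0% to 14.1%.

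The share also set apart 2 small groups of barcodes with under 5% mitochondrial UMIs and none of the marks. One group had under 5% ribosomal protein UMIs (43, 0 and 11 barcodes in replicates 1, 2 and 3), with a median of 0.724% in replicate 1 and 0.783% in replicate 3, where MALAT1 took 23.3% and 26.0% of UMIs. The other had at least 20% (38, 92 and 13 barcodes), with medians of 28.9%, 29.1% and 27.2%, and there MALAT1 took 0.665%, 0.0046% and 0.102% of UMIs. By the 5% definition, 1 barcode of the first group in replicate 1 and 0 in replicate 3 were GCG-rich, and 18, 53 and 3 of the second. The others were GCG-poor, a class whose single barcodes spread widely in replicates 1 and 2. Its 10th to 90th percentiles ran from 0.718% to 22.0%, 8.47% to 32.4% and 9.97% to 18.3%. In GCG-rich cells they ran from 10.1% to 16.7%, 10.2% to 19.0% and 11.4% to 17.4%. Median depths in the second group were 3476, 3553 and 2848 UMIs. Among GCG-rich cells, those under 5% mitochondrial (20, 63 and 4 cells) had a ribosomal protein share of 27.7%, 24.7% and 23.0%, against 12.5%, 12.5% and 13.8% in those with 15% to 20%. Unmarked barcodes with 5% to 20% mitochondrial UMIs included 11, 4 and 0 with under 5% ribosomal protein UMIs. Another 19, 37 and 32 of them had at least 20%. Leaving out the barcodes under 5% mitochondrial does not remove these. Counts that change without the barcodes under 5% mitochondrial are given beside the results they touch.

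**Figure D2:**
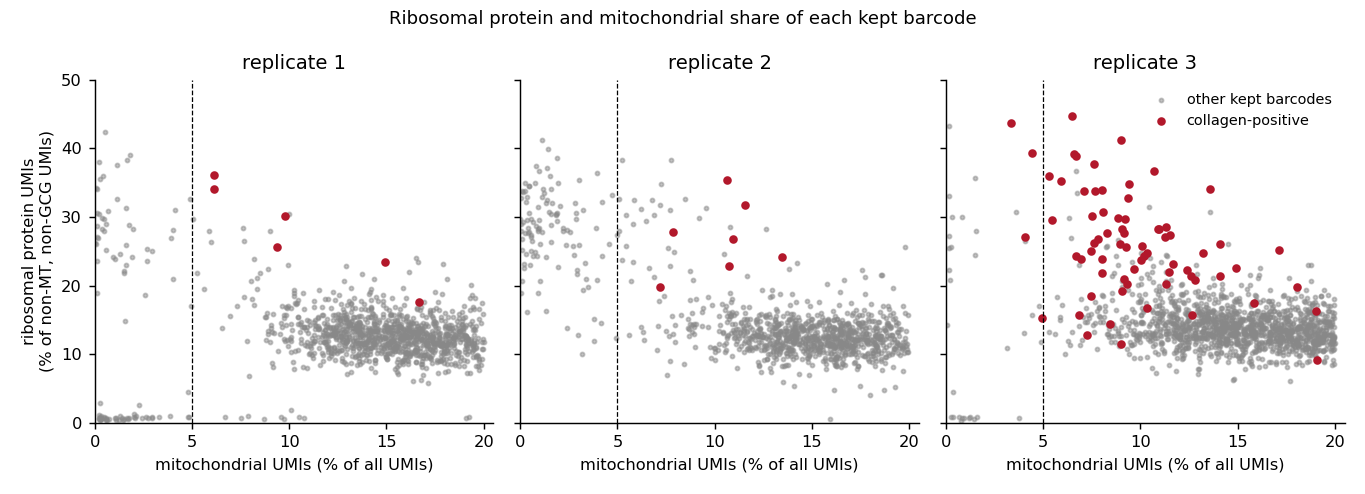
Each kept barcode by its mitochondrial UMIs (x axis, percent of all UMIs) and its ribosomal protein UMIs (y axis, percent of UMIs neither mitochondrial nor GCG), 1 panel per library; red points are collagen-positive cells with no other mark and the dashed line stands at 5%. Barcodes left of the line form an upper group, largest in replicate 2, and a lower group near 0, absent from replicate 2.

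Single genes differed widely in level. A UMI stands for 1 captured 3′ end, so CPM values are not scaled by gene length, and capture can differ between genes. Of the 85 ribosomal protein genes, 47 exceeded 1000 CPM in GCG-rich cells, 30 lay between 100 and 1000 CPM and 8 fell below 100 CPM. RPL3 (chr22:39312882-39320389, GRCh38), which lies close to the peptidyl transferase centre of the large subunit, was the highest, at 4640, 4578 and 4085 CPM in replicates 1, 2 and 3. After it came RPL41, a very short basic peptide of the large subunit, at 3064 ± 72 CPM (SD, n = 3), RPS3, at the mRNA entry site of the small subunit, at 2612 ± 180 CPM, and RPS2 at 2539 ± 190 CPM, the last 2 within each other's spread. RPL13 (2384 CPM), RPS3A (1933 CPM), RPS12 (1867 CPM) and the stalk protein RPLP1 (1841 CPM) completed the 8 highest. RPS4X, the X-linked copy of RPS4, stood at 1279, 1241 and 1438 CPM.

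Among the genes below 100 CPM were RPL36A (57.7 CPM), RPL26L1 (44.2 CPM), RPL22L1 (38.8 CPM), RPL17 (35.1 CPM), RPL39L (2.95 CPM), RPL10L (1 UMI in all GCG-rich cells) and RPL3L (0 UMIs). RPL3L is the muscle paralog of RPL3 and RPL10L the testis paralog of RPL10. Ribosomal protein genes have many processed pseudogenes and close copies, and RPL17, RPL36A and RPS10 overlap read-through genes, so their levels are uncertain where the authors' counting could split or drop reads. Composition was alike between libraries: of 83 genes with over 1000 UMIs in GCG-rich cells, 78 had a highest-to-lowest ratio between libraries under 1.3 in their share of ribosomal protein UMIs, with a median of 1.08. Among those beyond that bound were RPL36A (1.69), RPS10 (1.58), RPS20 (1.47) and RPL26 (1.40). Genes that met the tract definition at the annotated start had a median of 1102 CPM and those that did not 1066 CPM (47 and 21 genes).

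Fold changes were then fitted on counts summed per class and library, with the library as a block, by edgeR's quasi-likelihood test with Benjamini-Hochberg adjustment over all genes tested. Each was set on 3 scales: trimmed-mean (TMM) factors, which centre on the bulk of genes, plain library sizes (CPM), and the summed ribosomal protein UMIs, which shows a gene's place within the module. RPL3L and RPL10L were too low to test, which left 83 ribosomal protein genes and RPS19BP1. The scale shifts every gene at once: under plain sizes the median of all genes was -0.38 (log2) in GCG-high against GCG-low cells, 0.44 in TPH1-positive, 0.18 in cycling and -0.08 in collagen-positive cells, against 0.00, -0.02, -0.16 and -0.44 under TMM. Relative to the median of all genes, the median of the ribosomal protein genes was 0.09, -0.45, 0.46 and 1.32 under TMM and 0.09, -0.44, 0.46 and 1.37 under plain sizes, in the same order. The 3 comparisons with GCG-rich cells share that reference, so their values are given side by side and not as separate support for one another.

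**Figure D3:**
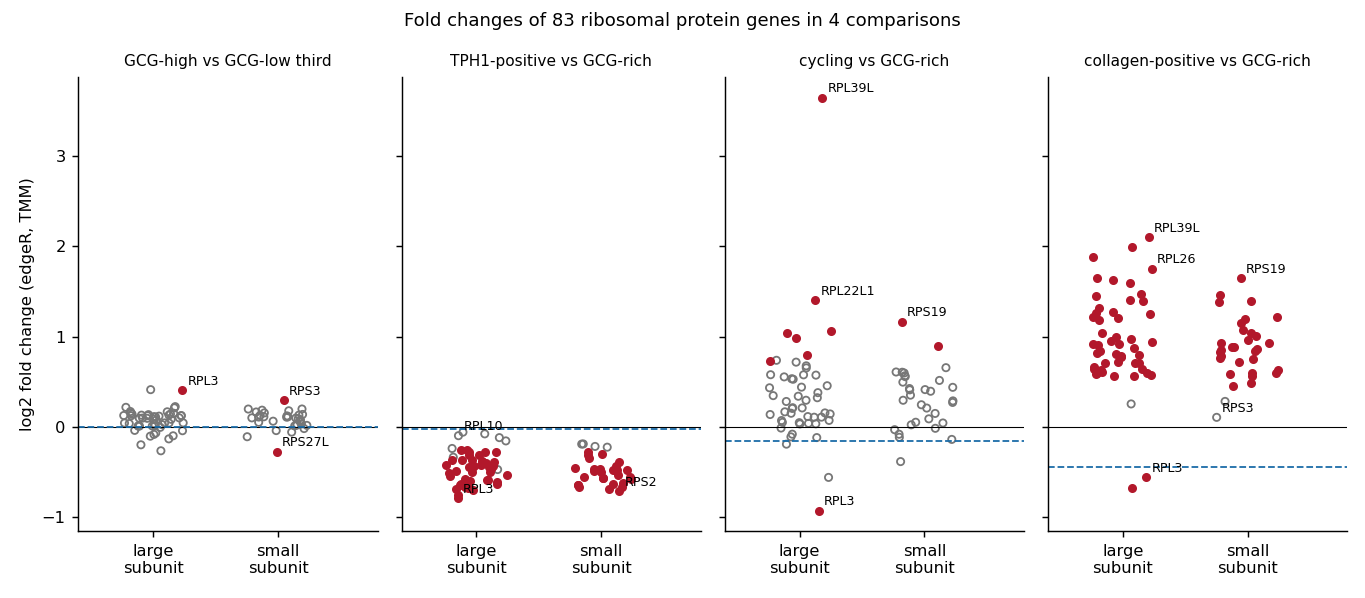
Log2 fold changes (y axis, edgeR with TMM factors) of 83 ribosomal protein genes by subunit (x axis, stalk with the large subunit) in 4 comparisons; filled red points passed an adjusted p of 0.05, open points did not, and the dashed line is the median of all genes tested. In TPH1-positive cells all points lie below 0, and in collagen-positive cells 81 of 83 lie above it.

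Glucagon content was compared between the highest and the lowest of 3 equal parts of the unmarked cells, ranked by GCG share within each library (GCG-high and GCG-low, 365, 328 and 412 cells each). Other markers moved with this ranking: in GCG-low against GCG-high cells, the 3 δ-cell markers summed to 3333, 8945 and 2206 against 1477, 2114 and 1656 CPM, the 7 mesenchyme markers to 998, 1294 and 2204 against 548, 648 and 783 CPM, and the 5 neural or glial markers to 111, 35.0 and 366 against 2.18, 0.478 and 1.19 CPM. MALAT1 stood at 35722, 16293 and 25519 against 16753, 10097 and 14479 CPM, and the part of these in the differences below was not tested. Under TMM, 2 of the 84 genes tested were higher in GCG-high cells (2.56% of all 12639 genes tested were) and 1 was lower (4.19% of all genes). RPL3 took 5.30%, 5.30% and 4.10% of ribosomal protein UMIs in GCG-high cells against 4.20%, 4.62% and 3.19% in GCG-low cells, higher in each library, and rose by 0.41 ± 0.09 (log2, SE; edgeR, adjusted p = 0.00578). RPS3 rose by 0.30 ± 0.08 (edgeR, adjusted p = 0.0342). RPS27L, a paralog of RPS27 known as a p53 target, was lower at -0.27 ± 0.07 (edgeR, adjusted p = 0.0305). Under plain sizes, where GCG itself fills a larger part of the total, 0 were higher (0.356% of all genes) and 81 lower (57.4%), and RPL3 and RPS3 did not pass. In CPM, 80 of 83 ribosomal protein genes were lower in all 3 libraries (73.6% of all genes were) and 0 higher (1.47%). Within the module (1.21% of all genes higher, 6.76% lower), RPL3 and RPS3 were again higher, by 0.30 and 0.19, and RPL10, RPL27, RPL36A, RPLP1, RPS19 and RPS27L lower, by between -0.38 and -0.19. The number higher under TMM was 0 without replicate 1 (0.220% of all genes), 31 without replicate 2 (4.03%), 0 without replicate 3 (2.13%) and 34 without barcodes under 5% mitochondrial (2.78%), so the count rests on single libraries and on those barcodes. RPL3, RPS3 and RPS27L each missed the threshold without replicate 1 (adjusted p from 0.334 to 0.46) and without replicate 3 (0.0967 to 0.353, edgeR), with the direction kept, and 0 of these 3 passed with the library left out of the model as a block.

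TPH1-positive cells had lower ribosomal protein mRNA than GCG-rich cells relative to the bulk of genes. Under TMM, 71 of 84 genes fell (9.01% of all 12927 genes tested did) and 0 rose (7.81%), with a median of -0.47 over the ribosomal protein genes: 43 of 51 large-subunit and stalk genes and 28 of 32 small-subunit genes. RPL3 was 4.21%, 3.82% and 3.54% of ribosomal protein UMIs in TPH1-positive cells against 5.09%, 5.12% and 4.03% in GCG-rich cells, lower in each library. Its fold change of -0.78 ± 0.07 was the largest of the module (edgeR, adjusted p = 1.89e-10). RPL7A fell by 0.75, RPS2 by 0.71, RPL5, which carries 5S RNA into the ribosome, by 0.69, RPL17 by 0.68 and RPS7 by 0.68, and RPL17 did not pass without replicate 3 (-0.43; edgeR, adjusted p = 0.457). RPS4X fell by 0.66 ± 0.08 (edgeR, adjusted p = 4.2e-08). Among the ribosomal protein genes that did not pass were RPL7, RPL7L1, RPL10, RPL22L1, RPL26L1, RPL36A, RPL39L, RPLP1, RPS12, RPS26 and RPS29, with values from -0.47 (RPL39L) to -0.06 (RPL7L1).

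Under plain sizes the median of the ribosomal protein genes was 0.00 in TPH1-positive cells, with 9 genes higher (32.3% of all genes) and 5 lower (3.33%), and in CPM 20 of 83 were higher in all 3 libraries (50.9% of all genes) and 25 lower (7.38%). Within the module 10 genes were higher (32.8% of all genes) and 3 lower (3.01%). The lower ones were RPL3 (-0.29 ± 0.08; edgeR, adjusted p = 0.00575), RPL7A (-0.26) and RPS2 (-0.22). RPL10, which reaches into the peptidyl-tRNA site of the large subunit, took 1.97%, 1.71% and 2.22% of ribosomal protein UMIs in TPH1-positive cells against 1.52%, 1.39% and 1.55% in GCG-rich cells (0.40 ± 0.08 within the module; edgeR, adjusted p = 0.000847). RPLP1 was 0.34 ± 0.08 higher on this scale (edgeR, adjusted p = 0.00274), and RPL7, RPL7L1, RPL28, RPL35, RPS12, RPS26, RPS29 and RPS19BP1 made up the rest. With a mitochondrial limit of 15%, which left 2 libraries, 19 genes fell under TMM (5.29% of all genes did) while the median was -0.60. In the other alternatives on that scale between 50 and 76 ribosomal protein genes were lower.

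In cycling cells the number of ribosomal protein genes called higher varied widely with the library and the scale, and RPL3 was lower. Under TMM, 9 of 84 genes rose, a smaller share than the 14.3% of all 13011 genes tested, and 1 fell (12.7%). In CPM, 78 of 83 ribosomal protein genes were higher in all 3 libraries (34.7% of all genes were) and 1, RPL3, was lower in all 3 (22.5% of all genes). Under plain sizes 35 passed as higher (20.2% of all genes) and 0 as lower (7.21%). The replicate 2 cells stood apart: 5 of its 13 cycling cells had at least 5% GCG, against 2 and 1 in the others, and its α-cell markers summed to 117575 CPM against 13701 and 12958 CPM. GCG alone gave 75856 CPM of that sum, against 7697 and 5956 CPM. Without replicate 2, 33 genes were higher (18.3% of all genes), without replicate 1 it was 4 (9.30%), without replicate 3 it was 2 (6.98%), and with cycling cells under 5% GCG only, 35 (17.2%). Without barcodes under 5% mitochondrial it was 41 (18.7%). That fit also lacked replicate 2, whose 8 remaining cycling cells were under the minimum of 10 per class. Without those barcodes the share in cycling over GCG-rich cells was 1.26, 1.02 and 1.18 times in replicates 1, 2 and 3. With them it was 1.39, 1.08 and 1.17 times. Cycling cells also carried markers outside the α-cell list, with 1255 to 4736 CPM over 5 neural or glial genes (0.749 to 8.39 CPM in GCG-rich cells) and 2804 to 11556 CPM of VIM (580 to 791 CPM), while the other 6 mesenchyme genes summed to 41.5, 25.1 and 354 CPM (2.19 to 7.69 CPM); their part in these differences was not tested.

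RPL39L (chr3:187120948-187180908), a paralog of RPL39 at the peptide exit tunnel that is best known from testis, had the largest change of the module in cycling cells. It gave 16, 18 and 17 UMIs in 19, 13 and 31 cycling cells, or 44.2, 64.5 and 35.0 CPM, against 45, 54 and 30 UMIs in all GCG-rich cells, or 2.96, 2.89 and 3.00 CPM. The fold change was 3.64 ± 0.41 under TMM (log2; edgeR, adjusted p = 1.48e-05) and 3.40 ± 0.43 within the module (edgeR, adjusted p = 0.00107). A UMI of RPL39L was found in 9, 10 and 9 of the cycling cells (47.4%, 76.9% and 29.03%) and in 5.06%, 5.99% and 3.19% of GCG-rich cells, at median depths of 17028, 23790 and 15125 against 16490, 21713 and 10482 UMIs. After each cell was thinned to 5000 UMIs, which left out shallower cells and kept 17, 8 and 29 cycling cells, the shares were 11.8%, 50% and 10.3% against 0.984%, 1.17% and 1.87%. In TPH1-positive cells 2.78%, 5.26% and 2.80% had a UMI, close to the GCG-rich level. Of the cells both cycling and collagen-positive, 2 of 3, 2 of 3 and 8 of 20 had one.

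RPL22L1 (chr3:170864875-170870483), the paralog of the RNA-binding protein RPL22, stood at 160, 100.4 and 132 CPM in cycling cells against 39.5, 37.0 and 39.9 CPM in GCG-rich cells, with no overlap. It rose by 1.40 ± 0.26 (edgeR, adjusted p = 0.00124); 51.7% of its UMIs in cycling cells of replicate 1 came from 1 cell. RPS19, a small-subunit protein mutated in Diamond-Blackfan anaemia, stood at 4045, 2026 and 3111 CPM against 1009, 961 and 1154 CPM and rose by 1.17 ± 0.26 (edgeR, adjusted p = 0.00461). RPL27 (1.06), RPL26L1 (1.04), RPL35 (0.98), RPLP1 (0.79) and RPL26 (0.73) also passed. Without replicate 3, RPS19 (1.17), RPL27 (0.94), RPL35 (0.84), RPL26L1 (0.90), RPLP1 (0.75) and RPL26 (0.63) missed the threshold, and without replicate 1, RPL27 (0.79), RPL26L1 (0.92), RPLP1 (0.67) and RPL26 (0.63) did. RPL39L and RPL22L1 passed in both. RPL3 stood at 3030, 3557 and 2366 CPM in cycling cells, below the GCG-rich cells of each library, and fell by 0.93 ± 0.25 (edgeR, adjusted p = 0.0134), but did not pass under plain sizes (-0.59), without replicate 3 (-0.86; edgeR, adjusted p = 0.39) or against GCG-poor cells (-0.48). Within the module (9.67% of all genes higher, 11.9% lower), RPL3 (-1.16), RPL7L1 (-0.81) and RPS3 (-0.62) were lower, and RPL39L, RPL22L1, RPS19, RPL27, RPL35 and RPLP1 higher.

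Collagen-positive cells had higher levels of nearly all ribosomal protein genes. A minimum of 10 cells per class, as first planned, left only replicate 3, so the fit used libraries with at least 5 cells, where replicates 1 and 2 contribute 6 and 7 cells. Under TMM, 78 of 84 genes rose (11.9% of all 12649 genes tested did) and 2 fell (23.3%), with a median of 0.88 over the ribosomal protein genes. In CPM, 80 of 83 were higher in all 3 libraries (23.5% of all genes were) and 2, RPL3 and RPL7L1, lower in all 3 (34.2% of all genes). Under plain sizes 81 passed as higher (17.2% of all genes) and 0 as lower (15.1%). Without replicate 1, 37 genes rose (9.17% of all genes; median 0.91), and without replicate 3, 51 (4.54%; median 0.82). Against GCG-poor cells in place of GCG-rich ones 77 ribosomal protein genes rose (12.6%). The α-cell hormone gene GCG was at 814 to 1340 CPM in these cells, against 130093 to 161358 CPM in GCG-rich cells.

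RPL10 (chrX:154389955-154409168) stood at 7398, 7470 and 7482 CPM in collagen-positive cells against 1391, 1246 and 1576 CPM in GCG-rich cells, and its share of ribosomal protein UMIs was 3.16%, 3.28% and 3.12% against 1.52%, 1.39% and 1.55%. It rose by 2.00 ± 0.12 under TMM (edgeR, adjusted p = 4.82e-64) and by 1.10 ± 0.12 within the module (edgeR, adjusted p = 2.19e-19). RPL39L (2.10), RPL22L1 (1.88), RPL26 (1.75), RPL36A (1.65) and RPS19 (1.65) were the other large changes. RPL39L rested on 3, 0 and 12 UMIs, so its fold is poorly determined, and it did not pass without replicate 1 (2.03; edgeR, adjusted p = 0.0871) or replicate 3 (1.89; 0.493). Within the module it did not pass (1.18; edgeR, adjusted p = 0.116). RPL22L1 stood at 257, 121 and 187 CPM. The median change in collagen-positive cells was 0.91 over the 47 genes that met the tract definition at the annotated start. Over the 20 tested genes with a window that did not meet it, the median was 0.76. This difference was not tested.

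RPL3 did not follow the module into collagen-positive cells. It stood at 4462, 3753 and 3869 CPM there, overlapping the 4085 to 4640 CPM of GCG-rich cells, while its share of ribosomal protein UMIs was 1.91%, 1.65% and 1.61% against 5.09%, 5.12% and 4.03%, with no overlap. The fold change was -0.56 ± 0.11 under TMM (edgeR, adjusted p = 4.56e-06), -0.14 under plain sizes (edgeR, adjusted p = 0.421) and -1.46 ± 0.11 within the module (edgeR, adjusted p = 4.9e-39). Under TMM it did not pass without replicate 1 (-0.53) or replicate 2 (-0.35), nor by DESeq2 (-0.55, adjusted p = 0.156), and with GCG-poor cells as the reference it was 0.09 (edgeR, adjusted p = 0.774). RPS3 also did not pass under TMM (0.11) and was -0.79 ± 0.12 within the module (edgeR, adjusted p = 2.65e-10). RPL7L1, related to RPL7, was lower at -0.68 ± 0.27 under TMM (edgeR, adjusted p = 0.0385) and at -1.59 ± 0.27 within the module (edgeR, adjusted p = 2.93e-08). Its value under TMM did not pass without replicate 1 (-0.37), 2 (-0.60) or 3 (-1.03). Within the module 21 genes were higher (6.08% of all genes) and 16 lower (57.5%), among them RPL36AL (-0.65), RPS28 (-0.62) and RPS19BP1 (-0.72).

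**Figure D4:**
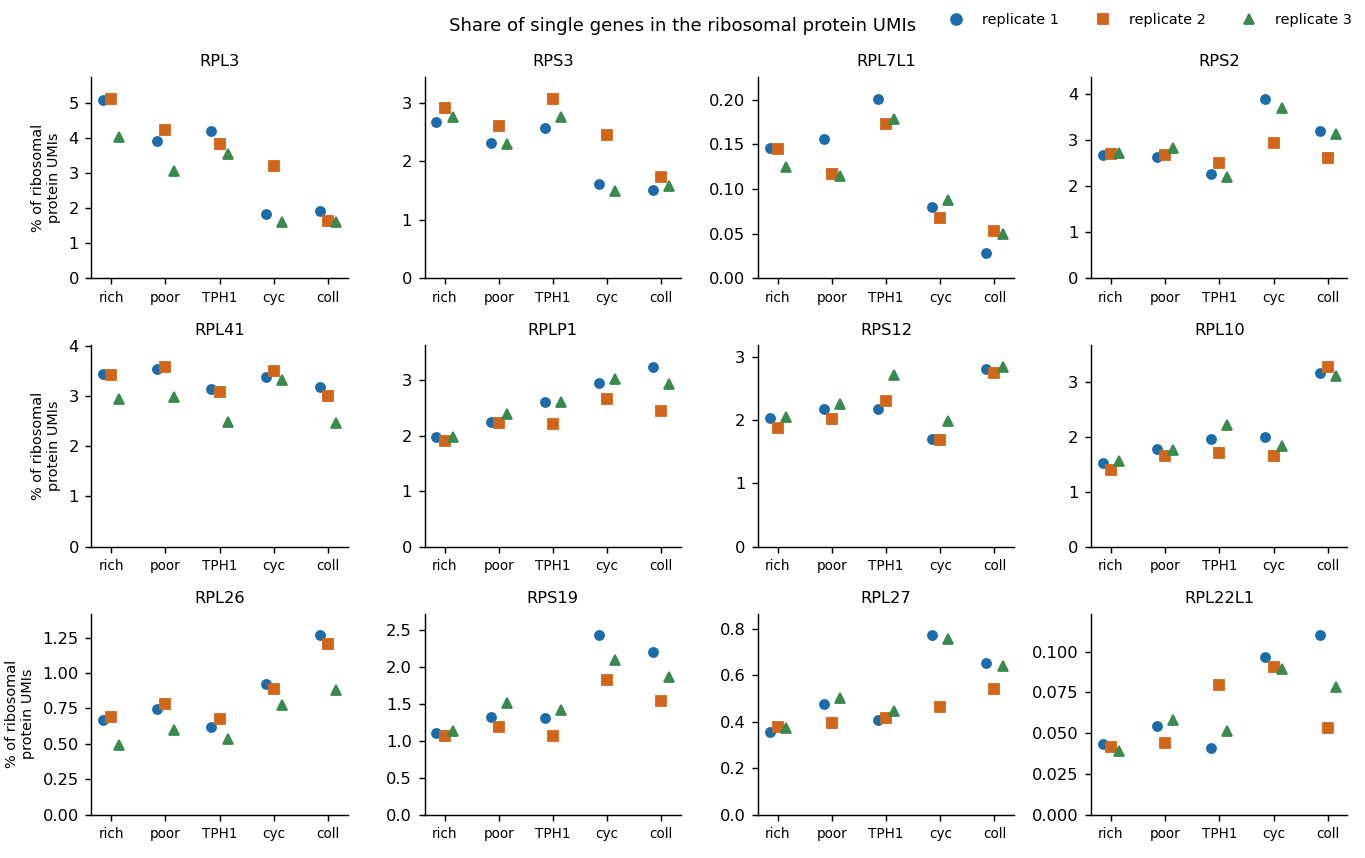
Share of 12 single genes in the ribosomal protein UMIs (y axis, percent, each panel with its own scale from 0) by cell class (x axis: GCG-rich, GCG-poor, TPH1-positive, cycling, collagen-positive) and library (symbol). RPL3 stands at 4.03% to 5.12% in GCG-rich cells and 1.61% to 1.91% in collagen-positive cells, and RPL10 stands at 1.39% to 1.55% in the former and 3.12% to 3.28% in the latter.

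Paralogs were set against their partners as the percentage of the pair's UMIs, which does not depend on the scaling; these percentages were not tested. RPL39L made up 0.350%, 0.347% and 0.338% of its pair with RPL39 in GCG-rich cells and 2.00%, 4.80% and 1.88% in cycling cells. RPL22L1 made up 5.85%, 5.69% and 5.56% of its pair with RPL22 in GCG-rich cells and 11.7%, 12.0% and 11.0% in cycling cells, with no overlap. Most of its 58 UMIs in cycling cells of replicate 1 came from a single cell, so that value is uncertain. In collagen-positive cells RPL22L1 was 14.7%, 5.75% and 10.8% of the pair, where replicate 2 was at the GCG-rich level. RPL7L1 made up 19.4%, 19.2% and 16.3% of its pair with RPL7 in GCG-rich cells, 9.43%, 8.82% and 9.33% in cycling cells and 3.65%, 6.49% and 5.44% in collagen-positive cells, a decline without overlap between the 3 classes. The collagen-positive values rested on 7, 10 and 83 RPL7L1 UMIs. In GCG-poor cells RPL7L1 was 18.95%, 15.4% and 13.6% of the pair. RPL36AL, the autosomal copy of the X-linked RPL36A, was the larger partner by UMIs throughout, with 82.6%, 85.4% and 89.2% in GCG-rich cells and 69.8%, 70.3% and 71.0% in collagen-positive cells. RPL36A overlaps a read-through gene, where counting could drop reads, so the percentages of this pair are uncertain. RPL26L1 made up 6.43%, 6.34% and 8.84% of its pair with RPL26 in GCG-rich cells and 2.81%, 3.42% and 5.10% in collagen-positive cells, the latter from 9, 8 and 79 RPL26L1 UMIs. RPS27L made up 8.39%, 8.53% and 11.1% of its pair with RPS27 in GCG-rich cells, 7.91%, 6.35% and 8.32% in TPH1-positive cells and 14.3%, 13.7% and 12.5% in cycling cells.

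**Figure D5:**
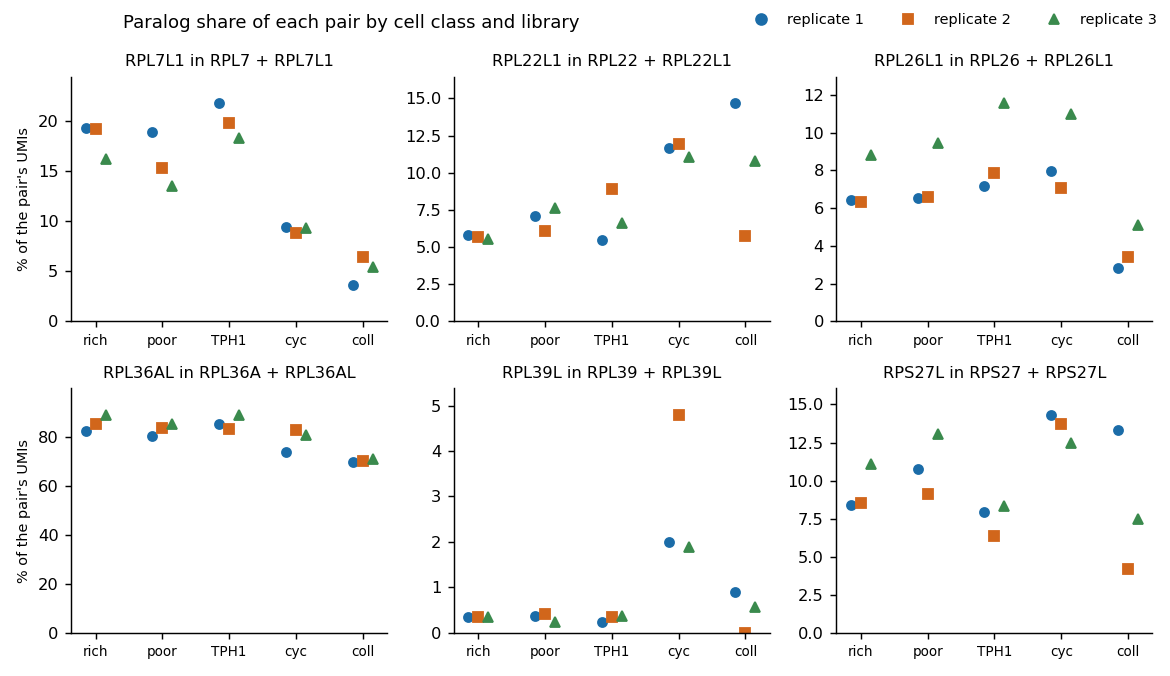
Percentage of each paralog pair's UMIs (y axis, each panel with its own scale from 0) that came from the paralog named first, by cell class (x axis: GCG-rich, GCG-poor, TPH1-positive, cycling, collagen-positive) and library (symbol). RPL39L and RPL22L1 are higher in cycling cells and RPL7L1 lower in cycling and collagen-positive cells. Most RPL22L1 UMIs in cycling cells of replicate 1 came from a single cell.

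Other genes of the translation machinery were followed by list under TMM, to be read against the shares of all genes given above (in cycling cells 14.3% higher and 12.7% lower, in collagen-positive cells 11.9% and 23.3%, in TPH1-positive cells 7.81% and 9.01%). FAU, which encodes a small-subunit protein under another name, and RACK1, which binds the small subunit, fell in TPH1-positive cells (-0.37 and -0.43) and rose in collagen-positive cells (0.60 and 0.85), and neither passed in the other comparisons. Of 15 translation factors and other tract-bearing genes tested, 10 fell and 0 rose in TPH1-positive cells, with EEF1B2 (-0.63), NPM1 (-0.50) and TPT1 (-0.46) the largest. In collagen-positive cells 9 rose and 1 fell, led by EEF1D (2.53), an elongation factor subunit, NPM1 (1.61) and NACA (1.59). In cycling cells 4 rose and 1 fell, with EEF1D at 1.78 and the helicase EIF4A2 at -1.39. Ribosome biogenesis genes, which act in the nucleolus, numbered 26: 10 rose in cycling cells (median 0.66; BYSL 1.77, EBNA1BP2 1.71, GAR1 1.65) and 6 in collagen-positive cells (BOP1 1.91, GAR1 1.81, GNL3 1.20), and 0 fell in either. In TPH1-positive cells 1 rose (NOLC1 0.71) and 0 fell. Of 76 mitochondrial ribosomal protein genes tested, a separate set that serves the mitochondrial ribosome, 20 rose in cycling cells and 0 fell (MRPL39 1.74, MRPL11 1.55, MRPL15 1.38), 13 rose and 2 fell in collagen-positive cells, and 1 fell in TPH1-positive cells (MRPL34 -0.52). In GCG-high cells EIF4B (0.30) and MRPL23 (0.29) were the only genes of these lists to pass.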

How the data were processed

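The 3 HUES8 SC-α libraries (10x Genomics 3′ v3) were analysed. Raw UMI counts per gene and barcode were deposited by the authors without normalization, made with Cell Ranger 4.0.0 against GRCh38, per the submitters' processing notes; the cell-calling parameters were not given in the sources used here. Library totals were 30139788, 31122791 and 30980799 UMIs. The members, gene lists and class definitions were chosen with earlier results of these data known. Counts were summed per class and library and tested with edgeR 4.0.16 (quasi-likelihood, TMM, filterByExpr, library as block since both sums of a pair come from 1 library, two-sided, adjusted p under 0.05). The filter and test were also run on simulated counts with 1 fixed dispersion and no library effect, which does not cover the spread of these data. The SE given with an edgeR fold change was back-calculated, as its absolute value divided by the square root of the quasi-likelihood F statistic. DESeq2 1.42.0 was an alternative. Scrublet in scanpy 1.11.5 called 14, 20 and 13 doublets, which the main results keep and an alternative leaves out. Genes named are all paralog pairs, the 8 highest and 8 lowest, up to 6 called per comparison and direction, and up to 3 per list; other genes, in counts of 5 or fewer, among those within the module or past a stated bound, were named after their values were seen. Positions are from GENCODE 29, start windows from RefSeq. Precision is limited by the number of cells: 83 collagen-positive and 63 cycling cells in all. Some genes are not reported here.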

Additional observations from a re-analysis of the deposited data

Results flagged for a closer look

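Among the rows that the rule on names with a dash left out, 3 had UMIs in kept barcodes, above the limit that a count of 0 allows. RPL17-C18orf32, a read-through of RPL17, had 42 UMIs over the 3 libraries (7, 21 and 14). RPL34-AS1, antisense to RPL34, had 20 (11, 6 and 3), and RPS10-NUDT3, a read-through of RPS10, had 5 (4, 1 and 0). RPL36A-HNRNPH2 had 0 UMIs in each library.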

How the results depend on the processing

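The values below count genes of the module, RPS19BP1 included, that passed an adjusted p of 0.05, with the share of all genes tested in brackets where it is not in the report. In GCG-high against GCG-low cells the number higher was 0 under plain library sizes, 6 with no filter on low counts (2.60%), 0 with no replicate block (0.119%), 6 with cells thinned to 5000 UMIs (1.46%), 0 at a mitochondrial limit of 15% (2.07%), 38 in cells with at least 2000 genes (2.95%), 8 with the ranking done among GCG-rich cells (0.925%) and 34 without barcodes under 5% mitochondrial. The number lower was 81 under plain sizes, 6 relative to summed ribosomal protein UMIs, 3 at the limit of 15% (4.11%), and 0 by DESeq2 (1.60%), with no replicate block (0.910%), after thinning (2.00%) and among GCG-rich cells (0.827%). Leaving out a replicate gave 0 to 31 higher and 0 to 1 lower. In TPH1-positive cells 9 were higher and 5 lower under plain sizes, 10 and 3 relative to the ribosomal protein sum, and 19 lower at the limit of 15%; with no replicate block 50 were lower (6.89%). In cycling cells the number higher was 35 under plain sizes, 29 after thinning (9.77%), 27 at the limit of 15% (16.9%), 30 with at least 2000 genes (18.0%), 41 without barcodes under 5% mitochondrial, 5 against GCG-poor cells (11.5%), 35 with cycling cells under 5% GCG and 2 to 33 leaving out a replicate. The number lower was 0 under plain sizes, 3 relative to the ribosomal protein sum, 2 after thinning (10.9%), 2 without barcodes under 5% mitochondrial (18.0%), 0 against GCG-poor cells (7.78%) and 0 to 1 leaving out a replicate. For cycling cells, the fits after thinning, with at least 2000 genes and without barcodes under 5% mitochondrial used replicates 1 and 3 only. Replicate 2 kept 8 cycling cells in each, under the minimum of 10, so these counts also reflect its absence. In collagen-positive cells 21 were higher and 16 lower relative to the ribosomal protein sum, and 49 and 0 with collagen at least 0.5% (9.13% and 11.1%, without replicate 2, which kept 3 cells). Leaving out a replicate gave 37 to 77 higher and 0 to 1 lower in these cells. The number lower was also 0 under plain sizes, by DESeq2 (11.3%), after thinning (12.3%), at the limit of 15% (17.4%) and against GCG-poor cells (14.5%), and 1 with no filter (12.0%).

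The share of ribosomal protein UMIs relative to its reference was 0.828 (GCG-high), 0.988 (TPH1-positive), 1.51 (cycling) and 2.49 (collagen-positive) with all UMIs as the denominator, 2.04 in collagen-positive cells by the median over cells, and 0.954 in GCG-high cells at the limit of 15%. Single genes changed sign as follows. Under plain sizes RPS3 was -0.087 in GCG-high cells, and in TPH1-positive cells RPL22 was 0.10, RPL36AL 0.16, RPL39 0.094 and RPS27 0.17. Relative to the ribosomal protein sum these were 0.12, 0.18, 0.11 and 0.19, and in collagen-positive cells RPL26L1 was -0.12, RPS27 -0.047 and RPS27L -0.31. Against GCG-poor cells RPL3 was 0.085 in collagen-positive cells. The cause of these changes was not tested. Of the other values for named genes, 463 kept their direction and side of the threshold and 106 kept the direction and missed it.

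The fits of cycling cells with at least 5% GCG (2, 5 and 1 cells) and of collagen-positive cells at 10 cells per library were not run, for lack of cells. The minimum of 5 cells, the GCG-poor reference, the limit of 5% mitochondrial and cycling cells under 5% GCG were chosen after seeing the data. Classes of 6 to 36 cells in replicates 1 and 2 limit the precision of the TPH1, cycling and collagen comparisons.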
